A study of Arabidopsis thaliana with 10 samples.

Results

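Seedlings of the Arabidopsis thaliana line DIF-OX2 grown on medium with dexamethasone (Dex) were compared with seedlings of the same line grown on medium without it. The comparison takes 4 of the 10 RNA sequencing libraries of the study, chosen by their labels, and covers all 33602 genes of the deposited count table. DIF-OX2 on Dex and DIF-OX2 without Dex both had the Col-0 background, were 12 days old and were harvested as whole seedlings with 4 open true leaves, with 2 libraries each. Plants grew under 16 h of light on GM medium with 1% sucrose; the first of these groups received 10 µM Dex in 0.1% ethanol in the medium and the other 0.1% ethanol alone. Wild type Col-0 on Dex and Col-0 without Dex, 2 libraries each at the same age, measured the effect of the inducer itself. The mutant dal-2, with 2 libraries from plants of 20 and 21 days at the same leaf number, entered the statistical fit as a further source of spread.

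DIF-OX2 is 1 transgenic line. The sources used here give neither the promoter or vector of its transgene nor the locus of DIF, so the induction of DIF by Dex could not be checked. Dex is a synthetic glucocorticoid that plants do not make, widely used to switch on transgenes. In whole seedlings, fewer cells of a type and less RNA per cell cannot be told apart. The labels do not say whether the replicates came from separate cultures, so p-values measure only how far these samples spread, and that spread may be technical.

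The title of the study concerns an SCF ubiquitin ligase containing DIF and the degradation of DAL. SCF ligases mark proteins for destruction by the proteasome, and an F-box subunit chooses the target. DAL, also called MORF2, belongs to a family of factors needed for editing of organellar transcripts. Chloroplasts with disturbed gene expression signal to the nucleus, a process called plastid retrograde signalling, and nuclear photosynthesis genes are its best known readout. Disturbed mitochondria also signal to the nucleus, with alternative oxidase as the usual marker.

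Libraries held 8805568 and 14766519 gene counts in DIF-OX2 on Dex, against 14029728 and 12745229 in DIF-OX2 without Dex; the other 6 libraries held 9780846 to 16556322. The 20 most abundant genes of each library took 6.47% and 5.34% of the counts in DIF-OX2 on Dex, against 11.4% and 11.5% in DIF-OX2 without Dex. Replicates of the 4 groups of Col-0 and DIF-OX2 differed by an SD of 0.355 to 0.439 on the log2 scale, and those of dal-2 by 0.745. The fit gives each gene 1 spread over all groups, the dal-2 pair included. The marker genes of leaf tissue were abundant, with RBCS1A, the small subunit of Rubisco, at 7789 and 5444 CPM on Dex, against 14307 and 13649 CPM without Dex. The unit of every level is CPM, in which counts are divided by library size after a TMM correction for library composition, and ± after a log2 fold change is its standard error.

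DAL (AT2G33430) was measured first. Its transcript stood at 72.6 and 59.3 CPM on Dex, against 92.6 and 95.6 CPM without Dex. Both Dex libraries lay below both libraries without Dex (log2 fold change −0.51 ± 0.15, adjusted p = 0.0421 by edgeR's quasi-likelihood test with Benjamini-Hochberg adjustment over all tested genes). In the wild type it had 99.6 and 115 CPM in Col-0 on Dex and 97.9 and 107 CPM in Col-0 without Dex, and the difference between the Dex effects of DIF-OX2 and of Col-0 was −0.58 ± 0.22 with an adjusted p of 0.149. The call ended without Dex library 2 (adjusted p = 0.254), solvent library 1 (0.133) or solvent library 2 (0.159), where Dex library and solvent library mean the replicates of DIF-OX2 with and without Dex. Of the 9 genes of DAL and the MORF family, MORF9, a plastid editing factor, also fell, with 76.4 and 60.05 CPM on Dex, against 108 and 94.1 CPM without Dex (log2 fold change −0.57, adjusted p = 0.0484). The call of MORF9 ended without Dex library 2 (adjusted p = 0.272), solvent library 1 (0.214) or solvent library 2 (0.0964). No member rose, and the median log2 fold change over the family was −0.05.

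Dex changed a large share of the transcriptome of DIF-OX2. Of 20681 genes with enough counts to be tested, 5023 (24.3%) were called at an adjusted p of 0.05 by edgeR's quasi-likelihood test, 2632 (12.7%) higher and 2391 (11.6%) lower on Dex. Large changes were mostly rises. At 4-fold or more, 694 genes (3.36%) were higher and 244 (1.18%) lower, and at 16-fold or more 209 genes (1.01%) were higher and 14 (0.0677%) lower. Abundant genes mostly went down: of 87 genes at 1000 CPM or more, 28 fell and 5 rose, and their median log2 fold change was −1.38. Between 10 and 100 CPM, 1445 genes rose and 1432 fell, with a median of 0.0031. Groups did not overlap for 14445 genes (69.8%), a share that 2 libraries against 2 make easy to reach. Of the called genes 0 had groups that overlapped, so a lack of overlap adds nothing to a call. The count of calls was 1394, 2002 and 2014 without Dex library 2, solvent library 1 and solvent library 2. It was 7632 with both dal-2 libraries left out of the fit, of which 5008 were among the 5023, and a test against a 2-fold minimum called 574 genes higher and 162 lower.

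The inducer alone had far smaller effects in the wild type. In Col-0 on Dex against Col-0 without Dex, 0 genes were called by edgeR, with 566 (2.74%) at an unadjusted p under 0.05; limma-voom and DESeq2 also called 0, with 512 and 352 genes at that unadjusted level. The SD of log2 fold changes over all tested genes was 1.07 in DIF-OX2 and 0.389 in Col-0. Of the 5023 genes called in DIF-OX2, 4848 (96.5%) had a log2 fold change within 1 of 0 in Col-0. With an SD of 0.389 there, most tested genes lie in that range whether called or not. The share therefore does not set the called genes apart. Across all tested genes the Dex effects of DIF-OX2 and Col-0 correlated at a Pearson r of 0.202. A test of whether the genotypes differed in their Dex effect called 1309 genes (6.33%), 792 (3.83%) higher and 517 (2.5%) lower in DIF-OX2. Among the 1304 of these with counts in all 4 groups, 1296 were also called within DIF-OX2 with the same sign, so 3722 calls within DIF-OX2 were not shown to differ from Col-0. The count of differences depended on single libraries: it was 190 and 251 without each library of Col-0 on Dex, 257 and 313 without each library of Col-0 without Dex, 239 without Dex library 2, and 256 and 272 without solvent library 1 and 2. It was 3681 without dal-2 (1764 higher and 1917 lower) and 2046 by DESeq2.

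**Figure D1:**
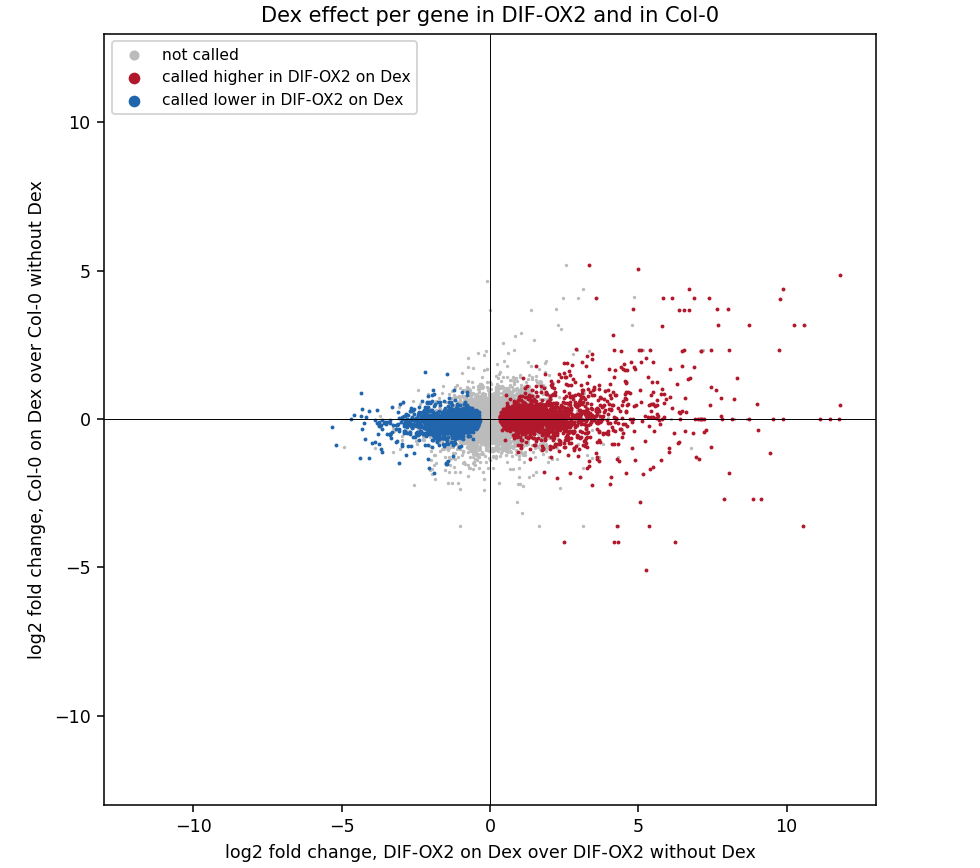
Each point is 1 of 20681 tested genes, with the log2 fold change of DIF-OX2 on Dex over DIF-OX2 without Dex on the x axis and that of Col-0 on Dex over Col-0 without Dex on the y axis, both on the same scale. Called genes (2632 higher in red, 2391 lower in blue) spread along the x axis, with the rises reaching further than the falls, while 96.5% of them lie within 1 of 0 on the y axis. Most tested genes, called or not, lie in that range of the y axis, where the SD was 0.389.

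The largest rises were of genes nearly silent without Dex. PEN3 (AT5G36150, chr5:14220634-14226211 on TAIR10.1, minus strand), a synthase of pentacyclic triterpenes, had 283 and 382 CPM on Dex, against 0.0792 and 0.0875 CPM without Dex (count ratio 4168, 95% interval 1154 to 34425). The defensin gene PDF1.3 had 34.2 and 35.6 CPM on Dex, against 0 and 0 CPM without Dex, and was at least 282-fold higher, counting a floor of 3 counts over the group at 0. Such intervals and floors cover counting error only. Also without a count in DIF-OX2 without Dex were AT4G39610, a MIZU-KUSSEI-like protein at 33.2 and 35.2 CPM on Dex (at least 277-fold higher), AT4G11340, which encodes a TIR-NBS-LRR protein of disease resistance, at 25.2 and 31.3 CPM on Dex (at least 233-fold), and the expansin EXPA19 at 17.9 and 26 CPM on Dex (at least 185-fold). GPT2, which imports glucose phosphate into plastids, had 63 and 34.9 CPM on Dex, against 0 and 0.0875 CPM without Dex (count ratio 1084, 95% interval 194 to 42848). Groups that did not overlap were a condition of naming these 6 genes, and their calls held without any 1 of the 4 libraries.

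Several of the rising genes became abundant transcripts. CYS2, a phytocystatin that inhibits cysteine proteases, had 677 and 792 CPM on Dex, against 1.03 and 1.05 CPM without Dex (log2 fold change 9.45 ± 0.99, adjusted p = 7.06e-04). Its level in Col-0 was 0.569 and 0.885 CPM in Col-0 on Dex and 1.45 and 1.83 CPM in Col-0 without Dex, and its Dex effects differed between the genotypes by 10.58 ± 1.53, adjusted p = 0.0102. AT2G05510, a glycine-rich protein, had 2231 and 2282 CPM on Dex, against 21.8 and 17.58 CPM without Dex (log2 fold change 6.84 ± 0.56, adjusted p = 2.58e-04). BCA3, a carbonic anhydrase, had 354 and 501 CPM on Dex, against 5.15 and 5.16 CPM without Dex (log2 fold change 6.37 ± 0.25, adjusted p = 2.96e-05). For all 3 genes the conditions lay much further apart than the replicates of either condition. A chitinase gene, CHI (AT2G43570), had 165 and 232 CPM on Dex, against 3.32 and 3.41 CPM without Dex (log2 fold change 5.88, adjusted p = 8.03e-05), and BGLU45, a beta-glucosidase, had 367 and 437 CPM on Dex, against 7.2 and 8.05 CPM without Dex (log2 fold change 5.72, adjusted p = 8.13e-04). The calls of these 5 genes held without any 1 of the 4 libraries.

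Falls were smaller and started from genes well expressed without Dex. FBA5 (chr4:13390754-13393265, plus strand), a fructose-bisphosphate aldolase, had 18.202 and 6.98 CPM on Dex, against 305 and 284 CPM without Dex (log2 fold change −4.58 ± 0.49, adjusted p = 7.81e-04). Its Col-0 levels were 250.3 and 276 CPM in Col-0 on Dex and 239.5 and 243 CPM in Col-0 without Dex, and the Dex effects of the genotypes differed by −4.7 ± 0.63, adjusted p = 0.00786. AT1G13650, a protein of unknown function, had 16.3 and 5.77 CPM on Dex, against 224 and 165 CPM without Dex (log2 fold change −4.18 ± 0.46, adjusted p = 9.02e-04). PGL5, a lactonase of the oxidative pentose phosphate pathway, had 3.45 and 1.64 CPM on Dex, against 34.6 and 30.5 CPM without Dex (log2 fold change −3.76 ± 0.27, adjusted p = 1.52e-04). The thionin gene AT1G66100, of a class of small antimicrobial proteins, had 43.6 and 26.5 CPM on Dex, against 395 and 399 CPM without Dex (log2 fold change −3.51, adjusted p = 6.93e-04). Without Dex library 1 the log2 fold change was −5.41 for FBA5 and −5.09 for AT1G13650, and without Dex library 2 it was −3.59 for AT1G13650. All 4 genes lay lower in both Dex libraries than in the other 6 libraries of DIF-OX2 and Col-0. FRO6, a ferric reductase of leaves, had 75.3 and 51.7 CPM on Dex, against 417 and 387 CPM without Dex (log2 fold change −2.66, adjusted p = 0.0445), with a call that ended whichever single library was omitted (adjusted p = 0.114 to 0.248). BT5, a BTB and TAZ domain protein, had 12.7 and 7.77 CPM on Dex, against 96.9 and 154 CPM without Dex (log2 fold change −3.63, adjusted p = 0.00621), and its call ended without Dex library 2 (log2 fold change −3.31). In Col-0 on Dex BT5 was lower too (log2 fold change −1.11, without a call). Its difference between the genotypes was not called (−2.52, adjusted p = 0.113 by edgeR).

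**Figure D2:**
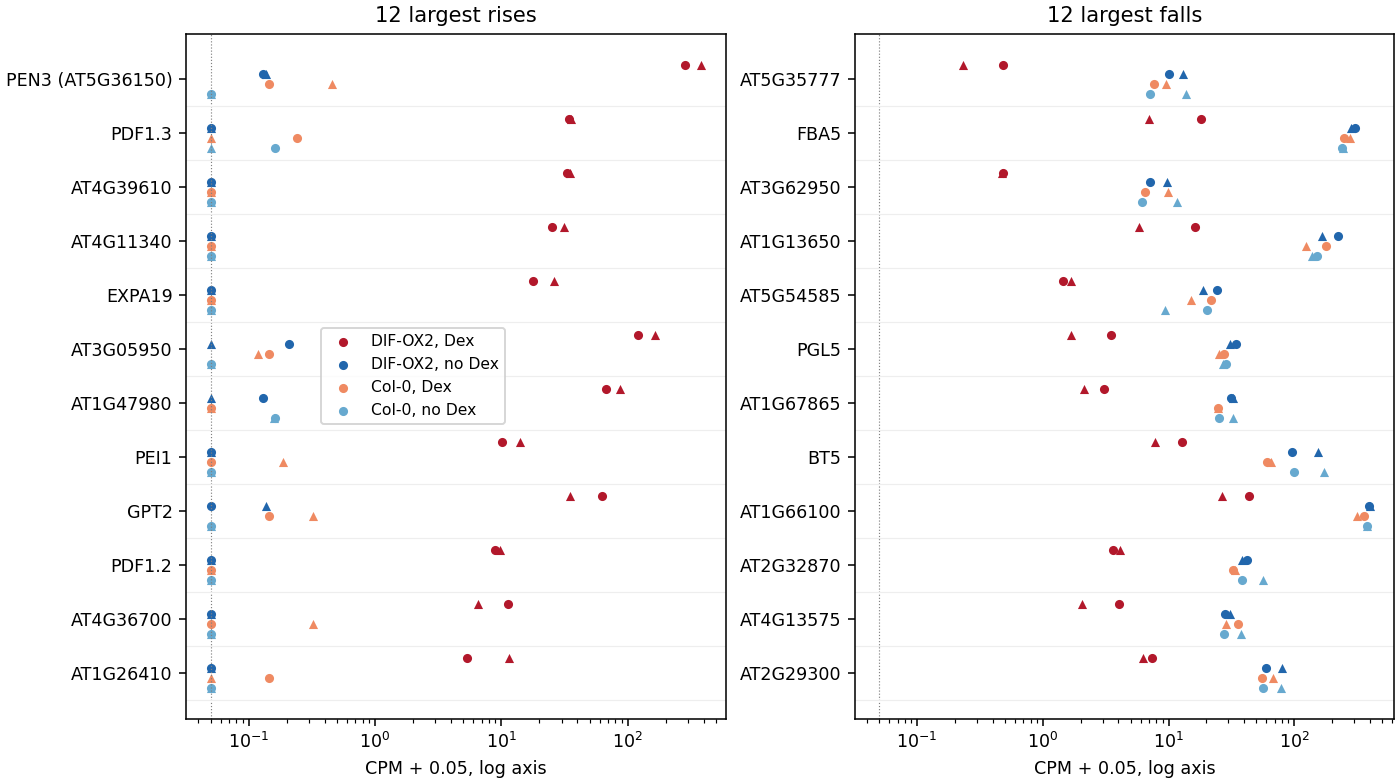
Levels of the 12 largest rises (left) and 12 largest falls (right) in each library, in CPM plus 0.05 on a log axis, where circles are replicate 1, triangles are replicate 2 and the dotted line marks a count of 0. In the left panel the 2 libraries of DIF-OX2 on Dex lie far right of the other 6, which sit at or near 0, and in the right panel they lie left of the other 6, at 0.182 to 43.6 CPM.

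Nuclear genes of photosynthesis fell together. Among the 30 members of the list of photosystem and electron transport subunits there were 25 falls and 0 rises, and their median log2 fold change was −1.41, against 0.0096 over all tested genes. Their summed level was 21899 and 15903 CPM on Dex, against 50485 and 51690.000000 CPM without Dex. All 30 members were lower on Dex, within a narrow range of −1.82 to −0.69. PSAF, a subunit of photosystem I, had 1177 and 861 CPM on Dex, against 3071.000000 and 3227 CPM without Dex (log2 fold change −1.63 ± 0.34, adjusted p = 0.0118). PSBQ2, an extrinsic protein of the oxygen-evolving complex of photosystem II, had 607 and 448 CPM on Dex, against 1598 and 1655 CPM without Dex (log2 fold change −1.62 ± 0.36, adjusted p = 0.0139), and PSAN, another photosystem I subunit, had 628 and 479 CPM on Dex, against 1974 and 1927 CPM without Dex (log2 fold change −1.82 ± 0.55, adjusted p = 0.046). In Col-0 the median of the list was 0.10, and the difference between the Dex effects of the genotypes was called for 1 member. The number of falls rested on single libraries: it was 16, 0, 2 and 1 without Dex library 1, Dex library 2, solvent library 1 and solvent library 2. Without dal-2 all 30 fell, and 29 to 30 fell when any 1 of the 4 was also omitted, a setting chosen after the data had been seen. Calls ended whichever single library was omitted for PSAN (adjusted p = 0.12 to 0.247), and for PSAF without Dex library 2 (0.107), solvent library 1 (0.0513) or solvent library 2 (0.0567) and PSBQ2 without Dex library 2 (0.122), solvent library 1 (0.0576) or solvent library 2 (0.0621).

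The light harvesting antenna, which binds chlorophyll around both photosystems, showed the same sign. Of 20 antenna genes 9 fell and none rose (median −1.50). Summed, they gave 35367 and 24433 CPM on Dex, against 81564 and 86389 CPM without Dex, the highest sum without Dex among the 34 gene lists described here. LHCB2.3 had 444 and 239 CPM on Dex, against 1765 and 1863 CPM without Dex (log2 fold change −2.41 ± 0.59, adjusted p = 0.0215). LHCB1.4 had 635 and 418 CPM on Dex, against 1984 and 2462 CPM without Dex (log2 fold change −2.08 ± 0.39, adjusted p = 0.00795). Near-identical copies within LHCB1 and LHCB2 leave the split of reads among them uncertain. The list kept 6, 0, 1 and 2 falls without Dex library 1, Dex library 2, solvent library 1 and solvent library 2, and 19 without dal-2. Calls ended whichever single library was omitted for LHCB2.3 (adjusted p = 0.0513 to 0.172), and for LHCB1.4 without Dex library 2 (0.0832).

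**Figure D3:**
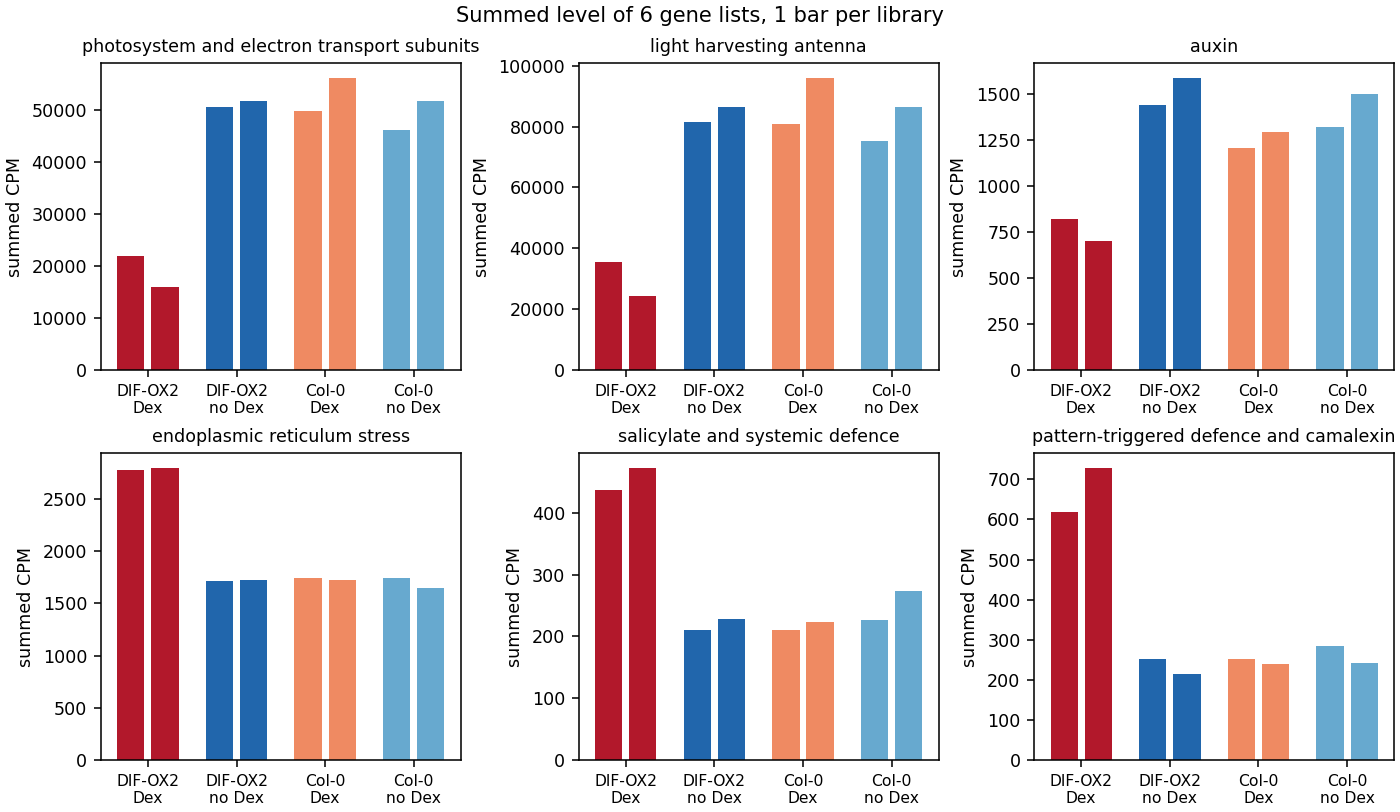
Summed CPM of the members of 6 gene lists, with 1 bar per library. The photosystem, antenna and auxin sums of DIF-OX2 on Dex lie below those of the 6 libraries of DIF-OX2 without Dex and Col-0, and the endoplasmic reticulum stress, salicylate and pattern-triggered defence sums lie above them.

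Carbon fixation and photorespiration were also lower. The Calvin-Benson cycle, with 20 genes tested, had 6 lower and 0 higher, at a median of −1.31. FBA5, given above, is among the falls, although it groups with the cytosolic aldolases. CP12-2, a regulator of the cycle, had 68.2 and 51.9 CPM on Dex, against 251 and 216 CPM without Dex (log2 fold change −1.96 ± 0.40, adjusted p = 0.0105). RBCS2B, a small subunit of Rubisco, had 1365 and 904 CPM on Dex, against 3707 and 3503 CPM without Dex (log2 fold change −1.67 ± 0.49, adjusted p = 0.0415). The RBCS1A levels given above differed by −1.08 on the log2 scale with an adjusted p of 0.116, which missed the threshold. Among 12 photorespiration genes, which recover carbon after oxygenation by Rubisco, 4 fell and none rose (median −1.36). SHM1, the mitochondrial serine hydroxymethyltransferase, had 1177 and 840.3 CPM on Dex, against 2499 and 2443 CPM without Dex (log2 fold change −1.29, adjusted p = 0.0362). GLDP1, a subunit of glycine decarboxylase, had 1330.1 and 861 CPM on Dex, against 3997 and 3656 CPM without Dex (log2 fold change −1.8, adjusted p = 0.0635) and was not called. Without dal-2, 20 of 20 and 12 of 12 genes fell. Omission of Dex library 1, Dex library 2, solvent library 1 and solvent library 2 left 4, 1, 1 and 3 falls in the cycle and 2, 0, 0 and 1 in photorespiration, and calls ended whichever single library was omitted for RBCS2B (adjusted p = 0.0861 to 0.246) and SHM1 (0.0685 to 0.225), and for CP12-2 without Dex library 2 (0.102) or solvent library 1 (0.0537).

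In chlorophyll synthesis most calls were falls, and the 1 called rise was in the haem branch. Falls numbered 14 and rises 1 among 27 genes of the synthesis of tetrapyrroles and chlorophyll (median −0.77). CHLM, the methyltransferase of magnesium protoporphyrin, had 217 and 141 CPM on Dex, against 425 and 459.9 CPM without Dex (log2 fold change −1.31 ± 0.35, adjusted p = 0.0295). PORC, a light-dependent protochlorophyllide reductase, had 143 and 91.4 CPM on Dex, against 267 and 258 CPM without Dex (log2 fold change −1.17 ± 0.23, adjusted p = 0.00878). FC1 (AT5G26030), a ferrochelatase that makes haem, rose, with 85.1 and 93.3 CPM on Dex, against 57.4 and 51.8 CPM without Dex (log2 fold change 0.71 ± 0.14, adjusted p = 0.00849) and the genotypes differed in their Dex effect by 0.82 ± 0.19, adjusted p = 0.0452. HEMA1, the glutamyl-tRNA reductase at the entry of the pathway, had 393 and 299 CPM on Dex, against 1002 and 933 CPM without Dex (log2 fold change −1.48, adjusted p = 0.0838) and was not called. Falls numbered 16, 0, 3 and 2 without Dex library 1, Dex library 2, solvent library 1 and solvent library 2, and 21 without dal-2. Calls ended for CHLM without Dex library 2 (adjusted p = 0.205), solvent library 1 (0.0903) or solvent library 2 (0.112), PORC without Dex library 2 (0.0584) and FC1 without Dex library 2 (0.072) or solvent library 2 (0.0753).

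Regulators that act on these genes were lower too. Of 18 genes of plastid signalling and plastid transcription, 10 fell and none rose (median −0.94). GLK2, a transcription factor that promotes chloroplast development, had 75.7 and 47.8 CPM on Dex, against 209.5 and 167 CPM without Dex (log2 fold change −1.61 ± 0.46, adjusted p = 0.037). GNC, a GATA factor with a like role, had 11.5 and 9.47 CPM on Dex, against 31.5 and 27.4 CPM without Dex (log2 fold change −1.5 ± 0.25, adjusted p = 0.00467), and its relative CGA1 had 9.05 and 6.56 CPM on Dex, against 25.8 and 25.4 CPM without Dex (log2 fold change −1.73, adjusted p = 0.046). On Dex, Col-0 also had lower GNC (log2 fold change −0.69) and CGA1 (−0.88), without a call. The difference between the genotypes was not called for GNC (−0.81, adjusted p = 0.2 by edgeR), CGA1 (−0.85, adjusted p = 0.535) or GLK2 (−1.29, adjusted p = 0.269). It was called lower for 2 members of the list, whose median in Col-0 was 0.00018. SIG3, a sigma factor of the plastid RNA polymerase, fell by 1.26 on the log2 scale (adjusted p = 0.00394). GUN1, which integrates signals from plastids, had 307 and 235 CPM on Dex, against 377 and 333 CPM without Dex (log2 fold change −0.39, adjusted p = 0.131) and was not called. The list kept 10, 2, 4 and 3 falls without Dex library 1, Dex library 2, solvent library 1 and solvent library 2, and calls ended whichever single library was omitted for GLK2 (adjusted p = 0.0692 to 0.235) and CGA1 (0.108 to 0.26), and for GNC without Dex library 2 (0.0555).

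Transcripts encoded in the organelles were rare in these libraries. Falls numbered 9 among 63 tested plastid genes, where 11.6% of all tested genes fell, and no rise was called. The count was 3 without Dex library 1 and 0 without Dex library 2, solvent library 1 or solvent library 2. The plastid genes had a median log2 fold change of −1.19, and their median in Col-0 on Dex against Col-0 without Dex was −1.20 with 0 called. The plastid genome took 0.0194% and 0.0167% of the counts in DIF-OX2 on Dex, against 0.0357% and 0.0350% in DIF-OX2 without Dex. Col-0 spanned 0.0288% to 0.111%, and both Col-0 libraries without Dex lay above both on Dex. The 17 tested mitochondrial genes had a median log2 fold change of 0.54, against −0.66 in Col-0; edgeR, limma-voom and DESeq2 each called 0 of them, with 0 at an unadjusted p under 0.05, and the fit of the 4 DIF-OX2 libraries alone called 3 of 11 higher. Nuclear genes for organellar ribosomal proteins, as far as symbol or product text identified them, could be followed at higher counts. Of 19 tested, 7 (36.8%) fell and none rose, among them PSRP6 of the plastid ribosome with 85.6 and 72.4 CPM on Dex, against 169.9 and 155 CPM without Dex (log2 fold change −1.04, adjusted p = 0.00214). Of 131 genes for cytosolic ribosomal proteins 4 rose and 3 fell.

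Tissue markers were read beside the photosynthesis genes. Counts of calls here are to be read beside the 12.7% of all tested genes that rose and the 11.6% that fell. Of 11 root markers 1 rose and none fell (median −0.05), and their sum was 256 and 331 CPM on Dex, against 251 and 238 CPM without Dex. CASP1, of the root endodermis, had 24.3 and 34.3 CPM on Dex, against 32.7 and 38.8 CPM without Dex (log2 fold change −0.28, adjusted p = 0.376). RHD6, a regulator of root hairs, rose (log2 fold change 1.32, adjusted p = 0.0417), with a call that ended whichever single library was omitted (adjusted p = 0.0828 to 0.228). Of the 9 shoot meristem and organ boundary markers 7 could be tested, with 0 called higher and 1 lower, while WUS and CLV3 had too few counts. STM, a homeobox gene of the meristem, fell (log2 fold change −0.80, adjusted p = 0.0422), with a call that ended without Dex library 2 (adjusted p = 0.263), solvent library 1 (0.116) or solvent library 2 (0.166). Of 10 seed maturation genes 2 could be tested, CRA1 (adjusted p = 0.17) and CRU3 (adjusted p = 1). The list had summed levels of 0.969 and 3.7 CPM on Dex, against 0.396 and 0.962 CPM without Dex. The part of tissue makeup in the photosynthesis results was not tested.

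Genes of the mitochondrial dysfunction response rose. Of 17 members 9 rose and none fell, with a median log2 fold change of 0.74. AOX1A, the main stress-responsive alternative oxidase, had 59.8 and 57.8 CPM on Dex, against 37.8 and 32.4 CPM without Dex (log2 fold change 0.74 ± 0.13, adjusted p = 0.00659), and its Dex effect differed from that in Col-0 by 0.86 ± 0.19, adjusted p = 0.0389. Its relative AOX1D had 4.31 and 6.19 CPM on Dex, against 0.0792 and 0.0875 CPM without Dex (count ratio 66.3, 95% interval 18 to 553). AT5G09570, a small protein of the Cox19-like CHCH family, had 2.26 and 3.64 CPM on Dex, against 0.158 and 0.175 CPM without Dex (log2 fold change 4.1 ± 0.65, adjusted p = 0.00393). CYP81D8, a cytochrome P450 that responds to many stresses, had 13 and 18.8 CPM on Dex, against 2.14 and 2.1 CPM without Dex (log2 fold change 2.91 ± 0.31, adjusted p = 7.14e-04). The summed level of the list overlapped between conditions, at 614 and 657 CPM on Dex, against 622 and 586 CPM without Dex. NDA1, an alternative NAD(P)H dehydrogenase, was lower without a call (log2 fold change −1.67, adjusted p = 0.0823). The call of AOX1A ended without solvent library 2 (adjusted p = 0.0637).

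Many genes of defence rose. Of 20 tested genes of salicylate signalling, which restrains biotrophic pathogens, and of systemic defence 11 rose and 1 fell (median 1.33), with a summed level of 437 and 472 CPM on Dex, against 211 and 228 CPM without Dex. The Dex effect was called higher than that of Col-0 for 5 members. SARD1, a transcription factor that activates salicylate synthesis, had 71.9 and 92.2 CPM on Dex, against 1.19 and 1.14 CPM without Dex (log2 fold change 6.13 ± 0.49, adjusted p = 2.30e-04). FMO1, which makes the mobile signal N-hydroxypipecolate, had 3.88 and 4.55 CPM on Dex, against 0.0792 and 0 CPM without Dex (count ratio 104, 95% interval 18.23 to 4133). PR1, the classic marker of the response, had 21.2 and 14.1 CPM on Dex, against 0.237 and 0 CPM without Dex (count ratio 134, 95% interval 45.4 to 650.5; adjusted p = 0.0463). PR1 was listed at 0 in 1 of the libraries without Dex, and its call ended whichever single library was omitted (adjusted p = 0.108 to 0.194). ICS1, the enzyme that starts salicylate synthesis, was not called (log2 fold change 0.34, adjusted p = 0.0719), while PBS3, which acts directly after it, rose (log2 fold change 4.14, adjusted p = 5.50e-05). ALD1, the first enzyme of pipecolate synthesis, fell to 0.431 and 0.182 CPM on Dex, against 1.27 and 1.4 CPM without Dex (log2 fold change −2.22, adjusted p = 0.034), with a call that ended whichever single library was omitted (adjusted p = 0.0579 to 0.27) and a log2 fold change of −2.82 without Dex library 1 and −1.62 without Dex library 2. Rises numbered 9, 5, 6 and 7 without Dex library 1, Dex library 2, solvent library 1 and solvent library 2, and 11 to 13 in the fits without dal-2 and any 1 of them.

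Pattern-triggered defence, set off by conserved microbial molecules, moved the same way. Of 15 genes of this response and of camalexin synthesis, 10 rose and none fell (median 1.71), and the sum was 619 and 728 CPM on Dex, against 253 and 215 CPM without Dex. Here too 5 members passed the test of the difference from Col-0. FRK1, a receptor-like kinase induced by flagellin, had 8.83 and 11.1 CPM on Dex, against 0.317 and 0.525 CPM without Dex (log2 fold change 4.55 ± 0.70, adjusted p = 0.0035). CYP71A12, of indolic defence metabolism, had 25 and 32 CPM on Dex, against 0.633 and 0.787 CPM without Dex (log2 fold change 5.32 ± 1.15, adjusted p = 0.0132). PAD3, which completes camalexin, had 13.7 and 18.9 CPM on Dex, against 1.74 and 1.4 CPM without Dex (log2 fold change 3.37 ± 0.57, adjusted p = 0.00523). Both Dex libraries lay above both libraries without Dex for each gene, as in every called rise. The call of CYP71A12 ended without Dex library 2 (adjusted p = 0.0696), solvent library 1 (0.0913) or solvent library 2 (0.0831). The count of rises was 10, 8, 9 and 9 without Dex library 1, Dex library 2, solvent library 1 and solvent library 2.

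Promoters of these groups were read for 9 short motifs, since members of a list moved together. Windows were the 250 bases before the annotated start of the gene, from RefSeq's TAIR10.1, for 20576 of the tested genes. Searched on both strands were the W-box TTGAC bound by WRKY factors, the G-box CACGTG, the GCC-box GCCGCC, the TGA element TGACG, the evening element AAAATATCT, the I-box GATAAG and the TATA box TATAAA. Also searched were the gapped endoplasmic reticulum stress element (CCAAT, 9 free bases, CCACG) and a gapped CTTG pattern (CTTG, 5 free bases, CA, 2 free bases, G). This CTTG pattern is spaced otherwise than the published mitochondrial dysfunction motif, which was not searched. Both a W-box and a TGA element are counted where TTGACG occurs. A W-box stood in 45.2% of all windows, in 56.7% of 693 genes raised at least 4-fold and in 62.9% of the 35 windows of the salicylate and pattern-triggered lists, and in 70.6% of the 17 windows of the mitochondrial dysfunction list. The TATA box stood in 46.3% of all windows, in 53.4% of the 693 and in 60% of the 35. For the TGA element these shares were 19.3%, 23.4% and 22.9%, with 47.1% in the mitochondrial dysfunction list. They were 1.97%, 3.17% and 5.71% for the GCC-box and 2.43%, 2.45% and 0% for the evening element. An I-box, known from light-regulated promoters, stood in 12.3% of all windows, in 23.1% of 242 genes lowered at least 4-fold and in 24% of the 50 windows of the photosystem and antenna lists. The CTTG pattern stood in 1.2% of all windows and in 1 of 17 of the mitochondrial dysfunction list, which does not measure the published motif. The stress element stood in 0.374% of all windows and in 1 of 12 of its list. These shares describe letters in a window and no bound factor. The promoter of SARD1 (chr1:27749249-27749498, minus strand) is shown because this regulator of defence rose strongly and its window holds 4 matches of the W-box, in capitals.
SARD1: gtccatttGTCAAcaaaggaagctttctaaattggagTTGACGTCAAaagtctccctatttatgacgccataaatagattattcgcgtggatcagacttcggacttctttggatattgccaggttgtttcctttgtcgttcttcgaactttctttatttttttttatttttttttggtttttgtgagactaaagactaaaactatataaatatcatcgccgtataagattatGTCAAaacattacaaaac

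The windows of PSAF (chr1:11216142-11216391, minus strand) and PSBQ2 (chr4:2673244-2673493, minus strand), photosystem genes whose falls are given above, are shown 5′ to 3′ on the strand of the gene. Each has 1 I-box in capitals. An I-box was a condition of showing them, and it stood in 12 of the 50 windows of the photosystem and antenna lists.
PSAF: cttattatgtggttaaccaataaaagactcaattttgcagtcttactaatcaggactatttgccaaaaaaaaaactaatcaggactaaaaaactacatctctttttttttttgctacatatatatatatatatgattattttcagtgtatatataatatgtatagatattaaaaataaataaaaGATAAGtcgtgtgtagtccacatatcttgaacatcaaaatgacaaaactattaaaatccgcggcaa
PSBQ2: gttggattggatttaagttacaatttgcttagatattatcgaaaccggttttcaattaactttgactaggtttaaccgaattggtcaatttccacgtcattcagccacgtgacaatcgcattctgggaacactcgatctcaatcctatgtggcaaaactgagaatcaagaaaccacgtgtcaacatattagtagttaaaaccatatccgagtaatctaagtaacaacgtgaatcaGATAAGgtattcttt

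Jasmonate genes rose in larger number than they fell. Of 24 tested members 10 rose and 1 fell (median 0.61). CYP94B3, which inactivates the active jasmonate by hydroxylation, had 142 and 151 CPM on Dex, against 1.19 and 2.27 CPM without Dex (log2 fold change 6.41 ± 0.37, adjusted p = 7.07e-05). The defensin gene PDF1.2, a marker of joint jasmonate and ethylene response, had 8.94 and 9.78 CPM on Dex, against 0 and 0 CPM without Dex and was at least 76-fold higher. JAZ1 (log2 fold change 2.12, adjusted p = 3.49e-04) and JAZ10 (log2 fold change 3.03, adjusted p = 0.00267), repressors that the hormone itself induces, rose, and JAZ8 had 2.15 and 2.67 CPM on Dex, against 0 and 0.262 CPM without Dex (count ratio 19.9, 95% interval 6.52 to 99.2). AOS, the allene oxide synthase of jasmonate synthesis, fell, with 64.2 and 60.3 CPM on Dex, against 123 and 103 CPM without Dex (log2 fold change −0.86 ± 0.15, adjusted p = 0.00516). LOX2, the lipoxygenase of the same pathway, was not called, with 255 and 233 CPM on Dex, against 177 and 144 CPM without Dex (log2 fold change 0.60, adjusted p = 0.21). Rises in the list numbered 8, 5, 7 and 7 without Dex library 1, Dex library 2, solvent library 1 and solvent library 2. Calls ended for JAZ8 without Dex library 2 (adjusted p = 0.116) or solvent library 1 (0.0938) and AOS without Dex library 2 (0.0521).

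Ethylene and abscisic acid genes were mixed, where 12.7% of all tested genes rose and 11.6% fell. Of 13 tested ethylene genes 6 rose and 1 fell (median 0.49). ACO1 (AT2G19590), which makes ethylene, had 74.2 and 97.9 CPM on Dex, against 13.7 and 11.2 CPM without Dex (log2 fold change 2.79 ± 0.36, adjusted p = 0.00177), and ETR2, an ethylene receptor, had 29.5 and 32.4 CPM on Dex, against 11.2 and 11.5 CPM without Dex (log2 fold change 1.45, adjusted p = 0.00304). ACS6, an ACC synthase one step earlier, fell, with 18.6 and 20.9 CPM on Dex, against 48.7 and 46.4 CPM without Dex (log2 fold change −1.26, adjusted p = 0.00105). Of 21 genes of abscisic acid and drought, 4 rose and 3 fell (median −0.10), with 2, 1, 2 and 1 rises without Dex library 1, Dex library 2, solvent library 1 and solvent library 2. PYL6, a receptor, had 32.3 and 46.1 CPM on Dex, against 2.22 and 2.71 CPM without Dex (log2 fold change 3.99 ± 0.34, adjusted p = 2.72e-04). NCED3, the limiting enzyme of abscisic acid synthesis under drought, had 0.754 and 1.15 CPM on Dex, against 6.25 and 4.2 CPM without Dex (log2 fold change −2.39 ± 0.47, adjusted p = 0.00884), and its call ended without Dex library 2 (adjusted p = 0.0597) or solvent library 1 (0.0569). COR15A and KIN1, both cold and drought proteins, fell (log2 fold change −2.01, adjusted p = 0.00598 and log2 fold change −1.83, adjusted p = 0.00423), while the dehydrin ERD10 and its relative COR47 rose (log2 fold change 1.13, adjusted p = 0.0145 and log2 fold change 0.84, adjusted p = 0.0121). The calls of these dehydrins ended whichever single library was omitted for ERD10 (adjusted p = 0.0503 to 0.11), and for COR47 without Dex library 2 (0.087), solvent library 1 (0.0905) or solvent library 2 (0.0753).

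Growth hormone genes went down. Of 18 auxin genes 13 fell and none rose (median −1.07), with a sum of 818 and 699 CPM on Dex, against 1441 and 1587 CPM without Dex. For 4 of them the Dex effect was called lower than in Col-0. IAA3, of the Aux/IAA repressors that auxin both induces and destroys, had 27 and 19.5 CPM on Dex, against 99.5 and 134 CPM without Dex (log2 fold change −2.33 ± 0.25, adjusted p = 7.56e-04). IAA1 had 10.6 and 8.8 CPM on Dex, against 43.9 and 30.8 CPM without Dex (log2 fold change −1.96 ± 0.28, adjusted p = 0.00256), and IAA6 had 0.431 and 0.182 CPM on Dex, against 2.61 and 4.55 CPM without Dex (log2 fold change −3.64 ± 0.80, adjusted p = 0.0139). All Dex values of these 3 genes lay below all values without Dex, as in every called fall. The log2 fold change of IAA6 was −4.24 without Dex library 1 and −3.03 without Dex library 2. PIN3, an auxin efflux carrier, fell as well (log2 fold change −1.3, adjusted p = 0.00465). Falls in the list numbered 9, 4, 8 and 6 without Dex library 1, Dex library 2, solvent library 1 and solvent library 2, and the call of IAA6 ended without Dex library 2 (adjusted p = 0.149) or solvent library 2 (0.0751).

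Small auxin-induced SAUR proteins, which drive cell expansion, followed. Of 53 tested SAUR genes 22 (41.5%) fell and 4 (7.55%) rose, with a median of −0.89. SAUR63 had 2.91 and 2.85 CPM on Dex, against 17.5 and 14.8 CPM without Dex (log2 fold change −2.48, adjusted p = 7.23e-04). SAUR23 had 0.323 and 0.243 CPM on Dex, against 4.2 and 3.41 CPM without Dex (log2 fold change −3.75, adjusted p = 0.00142) and was near 0 on Dex. SAUR copies in tandem are alike in sequence, so reads may have been split among them. Of 28 aquaporins, the water channels of expanding cells, 7 fell and 4 rose, where 11.6% of all tested genes fell and 12.7% rose. TIP2;2 of the vacuole membrane had 67.3 and 65.5 CPM on Dex, against 345 and 292 CPM without Dex (log2 fold change −2.26, adjusted p = 0.00278).

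Cytokinin, brassinosteroid and gibberellin genes fell more often than they rose. Of 11 cytokinin genes 5 fell and 1 rose (median −0.66). ARR15, a response regulator that cytokinin induces, had 2.69 and 2.43 CPM on Dex, against 14.3 and 17.5 CPM without Dex (log2 fold change −2.64 ± 0.32, adjusted p = 0.00142), and CKX3, which degrades the hormone, had 9.05 and 8.44 CPM on Dex, against 0.554 and 0.875 CPM without Dex (log2 fold change 3.6 ± 0.38, adjusted p = 7.14e-04). The Dex effects on CKX3 differed between DIF-OX2 and Col-0 by 4.93 ± 0.67, adjusted p = 0.00838. Omission of Dex library 1, Dex library 2, solvent library 1 or solvent library 2 left 1, 3, 1 and 2 falls in the cytokinin list, in that order. Of 9 genes of brassinosteroids and gibberellins 4 fell and none rose (median −1.20), with 2 to 3 falls when any 1 of the 4 was omitted. BAS1, which inactivates brassinosteroids, had 6.35 and 8.62 CPM on Dex, against 22.4 and 22 CPM without Dex (log2 fold change −1.55, adjusted p = 0.00127), and GA20OX1, of gibberellin synthesis, had 1.83 and 1.88 CPM on Dex, against 4.99 and 5.25 CPM without Dex (log2 fold change −1.46, adjusted p = 0.00395). DWF4, the limiting step of brassinosteroid synthesis, was not called (log2 fold change 0.19, adjusted p = 0.486).

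Cell cycle genes gave no call in the fit of all 10 libraries. Of 20 members, including the mitotic cyclin CYCB1;1 with 7.65 and 8.44 CPM on Dex, against 6.57 and 8.4 CPM without Dex, 0 passed edgeR's test, with 1 at an unadjusted p under 0.05 and a median of −0.19, and limma-voom and DESeq2 also called 0. Of the same members 1 fell without dal-2, and 5 fell without dal-2 and Dex library 1. Among 9 genes of the DNA damage response 2 rose, where 12.7% of all tested genes rose. GMI1, a repair-related gene that radiation induces, had 35.1 and 41 CPM on Dex, against 4.35 and 5.16 CPM without Dex (log2 fold change 3.0 ± 0.32, adjusted p = 7.14e-04). NAC044, a factor that halts the cell cycle after damage, had 3.23 and 4.37 CPM on Dex, against 1.11 and 0.875 CPM without Dex (log2 fold change 1.95, adjusted p = 0.00886), with a call that ended without Dex library 2 (adjusted p = 0.0821), solvent library 1 (0.05) or solvent library 2 (0.066).

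Every tested gene of the endoplasmic reticulum stress list rose. All 12, which fold secreted proteins or respond to their misfolding, were called higher, with a median log2 fold change of 0.75 and a range of 0.42 to 3.52. The sum was 2780.000000 and 2795 CPM on Dex, against 1712 and 1723 CPM without Dex, the Dex libraries nearly equal to each other and so those without Dex. BIP3, an inducible chaperone of the HSP70 family, had 2.48 and 6.07 CPM on Dex, against 0.317 and 0.437 CPM without Dex (log2 fold change 3.52 ± 0.66, adjusted p = 0.00765). BIP2, its abundant relative, had 372 and 402 CPM on Dex, against 193 and 192 CPM without Dex (log2 fold change 1.01 ± 0.15, adjusted p = 0.00287), and BZIP60, a transcription factor that turns on the response, had 48.8 and 61 CPM on Dex, against 24.4 and 29.3 CPM without Dex (log2 fold change 1.03 ± 0.18, adjusted p = 0.00509). BIP1 and BIP2 are near-identical, so their separate values are uncertain. In Col-0 the median of the list was 0.03, and the difference between the Dex effects of the genotypes was called for 3 members. Rises numbered 9, 2, 3 and 4 without Dex library 1, Dex library 2, solvent library 1 and solvent library 2, and 10 to 12 in the fits without dal-2 and any 1 of them. Without Dex library 2 the log2 fold change of BIP3 was 2.68. The call of BIP3 ended without Dex library 2 (adjusted p = 0.0704), solvent library 1 (0.0652) or solvent library 2 (0.0517).

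A G-box stood in 41.7% of the 12 windows of this list, against 7.19% of all windows and 18% of the photosystem and antenna windows. BIP3 (chr1:2931851-2932100, minus strand) and BZIP60 (chr1:16137464-16137713, minus strand), a chaperone and a regulator, are shown with their G-box in capitals. A G-box and no other gene in the window were conditions of showing them, and among such called members they changed most.
BIP3: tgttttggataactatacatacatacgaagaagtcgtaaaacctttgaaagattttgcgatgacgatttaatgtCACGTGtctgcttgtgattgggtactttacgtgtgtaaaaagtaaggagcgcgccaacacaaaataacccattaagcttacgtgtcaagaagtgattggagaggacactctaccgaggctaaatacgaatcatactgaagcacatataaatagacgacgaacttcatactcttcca
BZIP60: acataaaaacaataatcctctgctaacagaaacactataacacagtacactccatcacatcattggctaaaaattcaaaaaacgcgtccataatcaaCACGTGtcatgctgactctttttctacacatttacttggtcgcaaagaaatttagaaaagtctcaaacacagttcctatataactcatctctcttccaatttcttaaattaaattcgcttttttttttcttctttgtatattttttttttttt

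Other stress lists rose in part. Of 13 tested oxidative stress genes 7 rose and 1 fell (median 1.1), and without dal-2 7 rose and 3 fell. The summed level of the list was nonetheless lower, at 3746 and 3408 CPM on Dex, against 5593 and 4994 CPM without Dex. AT3G28580, a nucleoside triphosphatase known as a marker of singlet oxygen, had 17 and 22.2 CPM on Dex, against 0.712 and 0.437 CPM without Dex (log2 fold change 5.06 ± 0.27, adjusted p = 5.44e-05). ZAT12, a zinc finger factor of general stress, had 9.69 and 9.35 CPM on Dex, against 2.61 and 3.06 CPM without Dex (log2 fold change 1.74 ± 0.24, adjusted p = 0.00208). FSD1, an iron superoxide dismutase, fell, with 662 and 507 CPM on Dex, against 1130.5 and 995 CPM without Dex (log2 fold change −0.86, adjusted p = 0.0394). Of 11 tested heat shock genes 2 rose (median 1.41), where 12.7% of all tested genes rose, and 1 rose when any 1 of the 4 libraries was omitted. DREB2A, a factor of heat and drought, had 12.3 and 13.2 CPM on Dex, against 1.82 and 2.1 CPM without Dex (log2 fold change 2.7 ± 0.46, adjusted p = 0.00505), and HSP17.6A, a small heat shock protein, had 8.29 and 8.99 CPM on Dex, against 0.237 and 0.175 CPM without Dex (log2 fold change 5.32, adjusted p = 0.0485). HSP101 was not called (log2 fold change 0.44, adjusted p = 0.391). Without dal-2, 6 genes of the heat shock list rose, while HSP101 stayed without a call (adjusted p = 0.114 by edgeR). Calls ended whichever single library was omitted for FSD1 (adjusted p = 0.0599 to 0.237) and HSP17.6A (0.101 to 0.192).

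Flavonoid synthesis, senescence and sugar genes had fewer calls, to be read beside the 12.7% of all tested genes that rose and the 11.6% that fell. Of 13 tested flavonoid and anthocyanin genes 4 rose (median 1.14), and 2 to 4 rose when any 1 library was omitted. UF3GT, which glycosylates anthocyanins, had 18 and 16.6 CPM on Dex, against 5.7 and 4.81 CPM without Dex (log2 fold change 1.71 ± 0.25, adjusted p = 0.0028), while chalcone synthase CHS was not called, with 472 and 464 CPM on Dex, against 399.8 and 258 CPM without Dex (log2 fold change 0.51, adjusted p = 0.307). Of 12 senescence and starvation genes 2 rose and 1 fell. SAG13 had 46.7 and 44.5 CPM on Dex, against 0.0792 and 0.262 CPM without Dex (log2 fold change 8.01 ± 0.63, adjusted p = 3.89e-04), and the beta-glucosidase DIN2 had 17.8 and 25 CPM on Dex, against 0.0792 and 0.7 CPM without Dex (log2 fold change 5.8 ± 0.66, adjusted p = 0.00105). Without solvent library 1 and without solvent library 2 the log2 fold change was 7.38 and 8.995 for SAG13 and 4.92 and 7.91 for DIN2. NAP, a NAC factor that promotes leaf senescence, fell, with 6.25 and 3.76 CPM on Dex, against 31.9 and 19.2 CPM without Dex (log2 fold change −2.39, adjusted p = 0.0425). Of 11 sugar and starch genes 3 rose and 1 fell: GPT2, given above, APL3 (log2 fold change 1.3, adjusted p = 0.029) and BAM5 (log2 fold change 3.03, adjusted p = 0.0428) rose, and APL1, which like APL3 is a subunit of the enzyme that commits glucose to starch, fell (log2 fold change −1.08, adjusted p = 0.0109). Rises in the sugar list numbered 1 to 2 with any 1 library omitted, and the log2 fold change of BAM5 was 3.88 without solvent library 1. Calls ended whichever single library was omitted for NAP (adjusted p = 0.0795 to 0.259) and BAM5 (0.132 to 0.214), and for APL3 without Dex library 1 (0.128), Dex library 2 (0.0784) or solvent library 2 (0.157) and APL1 without Dex library 2 (0.0813), solvent library 1 (0.0547) or solvent library 2 (0.0504).

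Nutrient lists had few calls. Of 15 tested iron genes 4 rose and 1 fell (median 0.97), and rises numbered 4, 2, 1 and 1 without Dex library 1, Dex library 2, solvent library 1 and solvent library 2. BHLH38 and BHLH100, transcription factors of iron deficiency, rose: BHLH38 had 36.6 and 23.56 CPM on Dex, against 3.25 and 2.89 CPM without Dex (log2 fold change 3.28, adjusted p = 0.0059), and BHLH100 had 35.4 and 15.1 CPM on Dex, against 2.06 and 1.75 CPM without Dex (log2 fold change 3.71, adjusted p = 0.0122), with a log2 fold change of 2.97 without Dex library 1. IRT1, the root iron transporter, had 52.3 and 112 CPM on Dex, against 43 and 51.6 CPM without Dex (log2 fold change 0.80, adjusted p = 0.139), and was not called. FER4, a ferritin that stores iron, had 25.5 and 20.9 CPM on Dex, against 46.8 and 41.7 CPM without Dex (log2 fold change −0.93, adjusted p = 0.0121). In Col-0 the median of the iron list was −0.75. The difference between the Dex effects of the genotypes was called higher for 2 members and lower for 2. Of 22 genes of nitrogen, sulfur and phosphate nutrition 4 rose, where 12.7% of all tested genes rose, and 1 to 3 rose when any 1 library was omitted. Among the 4 was SPX1, a phosphate sensor, with 39.1 and 59 CPM on Dex, against 8.31 and 6.39 CPM without Dex (log2 fold change 2.74 ± 0.35, adjusted p = 0.00173). The glucosinolate list had 1 of 13 higher, MAM3 (log2 fold change 1.81, adjusted p = 0.0089), and the circadian clock list 1 of 14, GI (log2 fold change 2.04, adjusted p = 0.0193), while CCA1, of the morning loop, was not called (log2 fold change −1.3, adjusted p = 0.401). The clock calls depended on dal-2. Without it 5 clock genes rose and 5 fell, CCA1 among the falls (adjusted p = 0.00137 by edgeR). Calls ended whichever single library was omitted for GI (adjusted p = 0.0534 to 0.115), and for BHLH38 without solvent library 2 (0.0511), BHLH100 without Dex library 1 (0.0517), solvent library 1 (0.0761) or solvent library 2 (0.0829), FER4 without Dex library 2 (0.112) or solvent library 1 (0.0712) and MAM3 without Dex library 2 (0.076), solvent library 1 (0.0594) or solvent library 2 (0.0682).

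Developmental regulators changed in the epidermis and in phase change. Of 8 genes of trichome and root hair patterning 5 fell and 1 rose (median −1.07). GL1, the MYB factor that starts trichomes, had 0.215 and 0.182 CPM on Dex, against 2.69 and 1.49 CPM without Dex (log2 fold change −3.37 ± 0.49, adjusted p = 0.00284), and MYB23, its relative, had 1.72 and 0.789 CPM on Dex, against 5.15 and 8.83 CPM without Dex (log2 fold change −2.56, adjusted p = 0.00522), with a log2 fold change of −3.14 without Dex library 1. Falls in the list numbered 4, 2, 3 and 3 without Dex library 1, Dex library 2, solvent library 1 and solvent library 2. Of 10 stomatal lineage genes 3 fell and 1 rose, and falls numbered 4, 0, 0 and 0 under the same omissions. SPCH, the factor that starts the lineage, rose, with 26 and 30.7 CPM on Dex, against 4.67 and 4.72 CPM without Dex (log2 fold change 2.59 ± 0.25, adjusted p = 5.75e-04) and a difference from Col-0 of 2.55 ± 0.36, adjusted p = 0.00976. EPFL9, the peptide stomagen, fell, with 6.03 and 4.07 CPM on Dex, against 13.1 and 13.8 CPM without Dex (log2 fold change −1.44, adjusted p = 0.0202). Of 9 tested genes of phase change and flowering 4 fell (median −1.38), with 4, 1, 3 and 3 falls under these omissions. SPL9, which promotes the adult phase, had 2.05 and 1.4 CPM on Dex, against 7.76 and 5.6 CPM without Dex (log2 fold change −1.99 ± 0.32, adjusted p = 0.0043), and SOC1, a flowering integrator, had 15.4 and 14.3 CPM on Dex, against 52.2 and 55.4 CPM without Dex (log2 fold change −1.86 ± 0.18, adjusted p = 4.76e-04). Calls ended for MYB23 without Dex library 2 (adjusted p = 0.059), EPFL9 without Dex library 2 (0.17), solvent library 1 (0.0729) or solvent library 2 (0.0839) and SPL9 without Dex library 2 (0.0547).

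**Figure D4:**
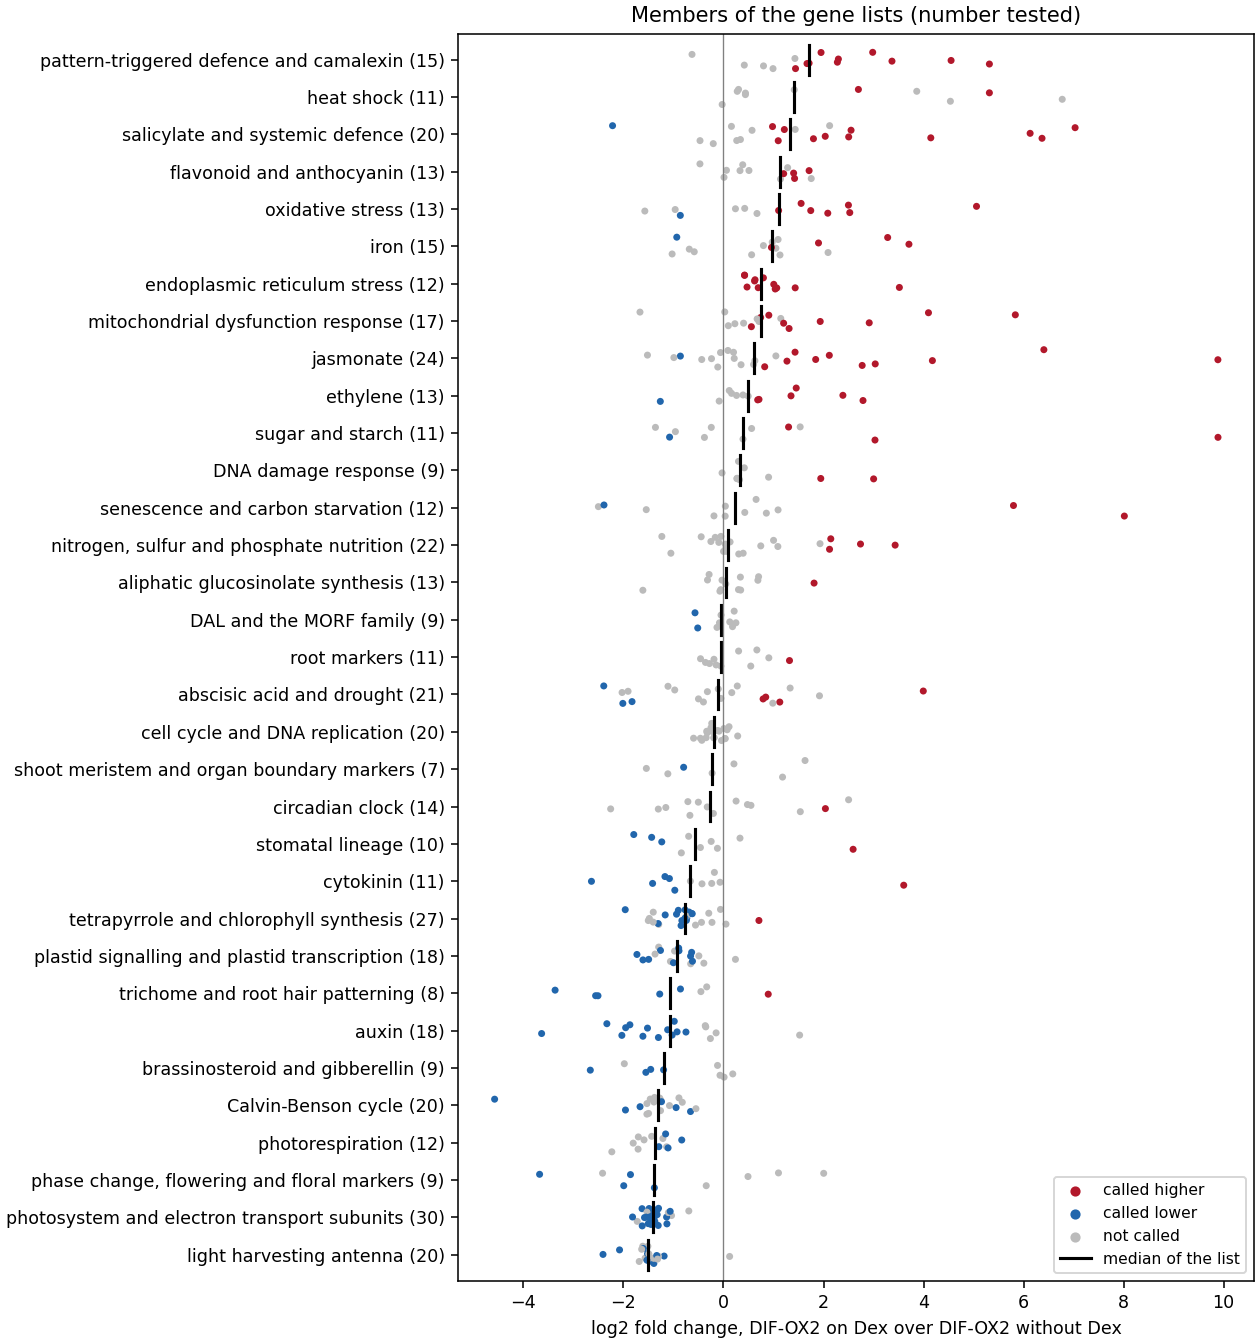
Log2 fold change of DIF-OX2 on Dex over DIF-OX2 without Dex for each tested member of 33 gene lists, with 1 point per gene, the list median as a bar and the number tested in brackets. The photosystem list spans −1.82 to −0.69 and the antenna list −2.41 to 0.12, and the salicylate list spans −2.22 to 7.03 and the pattern-triggered list −0.63 to 5.32.

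Gene families gave a wider view. They were picked by symbol or product text in the reference annotation, so members described otherwise may be missing, and shares cover the matched genes only. Of 59 tested WRKY transcription factors 29 (49.2%) rose, none fell and the median was 1.05, where 12.7% of all genes rose. WRKY54 had 6.89 and 9.23 CPM on Dex, against 0.95 and 0.875 CPM without Dex (log2 fold change 3.14, adjusted p = 0.00375), and WRKY46 had 9.26 and 10.3 CPM on Dex, against 2.06 and 0.437 CPM without Dex (log2 fold change 2.94, adjusted p = 0.00569); both act in salicylate defence. Of 59 NAC factors 19 (32.2%) rose and none fell, with NAC042 at 5.28 and 8.2 CPM on Dex, against 0.237 and 0.437 CPM without Dex (log2 fold change 4.31, adjusted p = 0.00151) and NAC103, which the unfolded protein response induces, at 8.08 and 11.5 CPM on Dex, against 0.95 and 0.875 CPM without Dex (log2 fold change 3.42, adjusted p = 0.00243). Of 32 cysteine-rich receptor-like kinases 15 (46.9%) rose and 1 fell, among them CRK13 with 16.4 and 13.4 CPM on Dex, against 0.396 and 0.437 CPM without Dex (log2 fold change 5.12, adjusted p = 2.39e-04). Of 18 berberine-type enzymes, which oxidise diverse defence compounds, 12 (66.7%) rose and 1 fell, with AT1G26380 at 30.05 and 40.8 CPM on Dex, against 0.396 and 0.175 CPM without Dex (log2 fold change 6.89, adjusted p = 7.36e-05).

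Detoxifying enzymes followed. Of 50 glutathione S-transferases 15 (30%) rose and 2 fell, and GSTF7 had 132 and 209 CPM on Dex, against 7.05 and 6.65 CPM without Dex (log2 fold change 4.64, adjusted p = 6.93e-04). Of 73 peroxidases 25 (34.2%) rose and 7 fell, with AT5G64120 at 266 and 323 CPM on Dex, against 25.3 and 36.1 CPM without Dex (log2 fold change 3.26, adjusted p = 1.43e-04). Of 52 calmodulins and EF-hand proteins, which bind calcium, 14 (26.9%) rose and none fell. Pentatricopeptide repeat proteins, most of which act on organellar RNA, had 24 (9.38%) of 256 lower and 3 higher, with a median of 0.04. F-box proteins had 9 (5.14%) of 175 higher and 19 (10.9%) lower. Of all tested genes 12.7% rose and 11.6% fell, so the share of falls in neither of these families exceeded that over all genes. The families were chosen after values of these data had been seen.

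**Figure D5:**
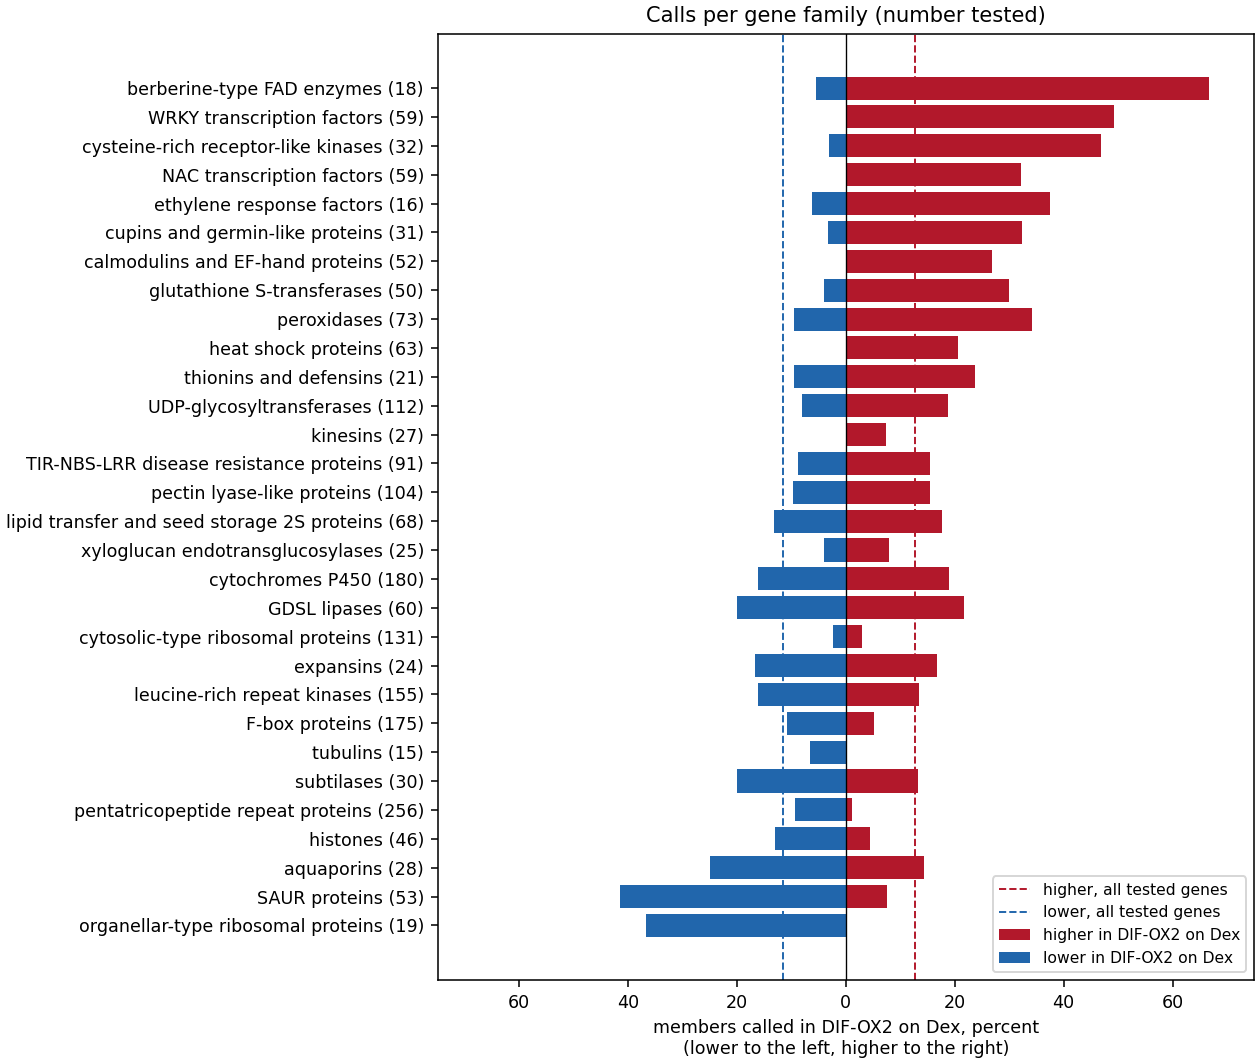
Percent of the tested members of 30 gene families that were called higher (red, to the right) or lower (blue, to the left) in DIF-OX2 on Dex, with the number tested in brackets and dashed lines at 12.7% and 11.6%, the shares over all tested genes. Berberine-type enzymes (66.7%) and WRKY factors (49.2%) reach furthest to the right, and SAUR proteins (41.5%) furthest to the left.

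Some changed genes lie next to each other. There were 19 runs of at least 3 neighbouring tested genes called in 1 direction at 4-fold or more, 14 higher and 5 lower, with 63 genes in all. The longest, at chr4:12145035-12160279, held 5 genes raised together, CRK12 to CRK15 and AT4G23215 between them. The 4 genes at chr1:9126737-9143336 were berberine-type enzymes from AT1G26380 to AT1G26420, and the run at chr1:22824414-22838635 held GPT2, BGLU45 and BGLU46. AZI1 and EARLI1, lipid transfer proteins of defence priming at chr4:7401087-7414955, had 262 and 210.4 CPM on Dex, against 60.4 and 54.4 CPM without Dex for AZI1 and 759.5 and 722 CPM on Dex, against 125 and 116 CPM without Dex for EARLI1. Lower runs included SAUR63 with 2 neighbours at chr1:10304507-10308246 and SAUR27, SAUR28 and SAUR29 at chr3:976715-981801. Several runs are tandem copies, whose reads may have been shared between copies, and how such reads were counted was not stated in the sources used here.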

How the data were processed

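The authors deposited 1 table of whole-number read counts per gene for the 10 libraries. Per the submitters' processing notes, Trimmomatic, TopHat2, HTSeq and TAIR10 were used, and versions, strand setting and treatment of reads with several matches are not given in the sources used here. The deposited counts were analysed with edgeR 4.0.16 in R 4.3.3: genes were filtered with filterByExpr, libraries scaled by TMM, and 1 coefficient per group fitted by quasi-likelihood over all 10 libraries. Contrasts were DIF-OX2 on Dex against DIF-OX2 without Dex, the same in Col-0, and their difference. Genes were called at a Benjamini-Hochberg adjusted p of 0.05 over all tested genes. Standard errors came from the log2 fold change and its F statistic. The fit was tested on simulated data. Alternatives used limma 3.58.1 and DESeq2 1.42.0, other scalings and filters, a 2-fold minimum, a replicate block and fewer libraries.

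The main fit held no term for the replicate number. Same-numbered libraries of DIF-OX2 without Dex and of Col-0 deviated alike in part, as given below, and those of DIF-OX2 on Dex were not shown to. Symbols and coordinates came from the RefSeq annotation of TAIR10.1, which held 498 of the 520 symbols in the 34 gene lists. Promoter windows are the 250 bases before each annotated start, and motifs were searched on both strands. Ratios and their exact 95% intervals used summed counts scaled to library size, with a floor of 3 counts over a group at 0.

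The genes named were DAL, the 12 largest rises and falls among calls whose mean over the 4 libraries reached 50 counts and whose groups did not overlap, the 6 largest rises and falls at a mean of at least 100 CPM, the first member and up to 3 called rises and falls of each list, and the 4 largest differences from Col-0 in each direction. The members and lists were chosen with earlier results of these data known. Families, runs of neighbours and the other genes named, such as SIG3, PIN3, PBS3, ICS1, BIP2 and BZIP60, were chosen after their values had been seen. A small number of items that these rules would include are not reported here.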

Additional observations from a re-analysis of the deposited data

Results flagged for a closer look

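The effect of Dex differed between DIF-OX2 and Col-0 in 1309 genes by edgeR's test of the difference itself, which is why the named genes below are listed again. The test compares 2 libraries per condition in each genotype, so each value rests on 8 libraries and on the spread shared with dal-2. Values are differences of log2 fold changes, the Dex effect in DIF-OX2 minus that in Col-0, for the 47 named genes that passed and had counts in all 4 groups.

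Among genes with a higher effect in DIF-OX2, the difference was 10.58 for CYS2, 7.55 for AT3G10590, 7.31 for AT2G05510, 7.15 for BCA3, 6.204 for CYP94B3, 5.88 for BGLU45, 5.81 for CHI, 5.76 for SARD1, 4.93 for CKX3 and 4.23 for BHLH38. Next in size, it came to 4.06 for AT3G28580, 3.65 for PYL6, 2.95 for GMI1, 2.92 for SPX1, 2.92 for BAP1, 2.71 for ZAT10, 2.55 for SPCH, 2.46 for CYP81D8, 2.17 for MAM3 and 1.99 for ZAT12. Smaller positive differences were 1.93 for UF3GT, 1.75 for ATERDJ3A, 1.61 for TT19, 0.86 for AOX1A and 0.82 for FC1 (AT5G26030).

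Among genes with a lower effect in DIF-OX2, the difference was −5.06 for AT5G35777, −4.703 for FBA5, −4.24 for AT1G13650, −3.67 for PGL5, −3.47 for AT1G67865, −3.34 for AT4G13575, −3.33 for AT1G66100, −3.25 for AT2G29300, −2.99 for GA20OX1 and −2.87 for AT2G32870. It was also −2.87 for GL1, −2.53 for MYB23, −2.48 for LHCB1.4, −2.38 for ARR15, −2.09 for COR15A, −2.02 for KIN1, −1.95 for SPL9, −1.94 for IAA3, −1.89 for IAA1 and −1.84 for FER4. Smaller negative differences were −1.75 for BAS1 and −1.51 for SOC1. A difference exceeds the change within DIF-OX2 where Col-0 moved the other way on Dex, although no change in Col-0 was called. Among such genes were GA20OX1, with a log2 fold change of −1.46 within DIF-OX2, and FER4, with −0.93. CKX3, given above, was 1 among the positive differences.

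DAL, PR1, AOX1D and the photosystem genes PSAF, PSAN and PSBQ2 are not among these. Groups of 2 libraries are too small for a test of single libraries that stand apart.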

How the results depend on the processing

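Counts of called genes within DIF-OX2, and of genes whose Dex effect differed from that in Col-0, were within 1.5 times the reported 5023 and 1309 under the RLE and upper quartile scalings, without a count filter, with a minimum of 5 CPM in 2 libraries, without organellar genes and by limma-voom. DESeq2 gave 5047 within DIF-OX2 and 2046 differences. The fit of only the 4 libraries of DIF-OX2 called 6886 genes, 3394 higher and 3492 lower. For the difference, leaving out all libraries but those compared is the same fit as that without dal-2. Without dal-2 the counts were 7632 and 3681, and against a 2-fold minimum 736 and 148. Omitting 1 library gave 1394 to 3645 calls within DIF-OX2 and 190 to 1200 differences. Omitting dal-2 and 1 further library, a choice made after seeing the data, gave 4383 to 7024 calls. Col-0 on Dex against Col-0 without Dex gave 0 calls under every alternative run, with 40 genes at an unadjusted p under 0.05 against a 2-fold minimum and 349 to 1132 under the others.

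Among the 149 named genes the 2-fold minimum ended 72 calls, limma-voom 8 and DESeq2 1. Values that changed sign belonged to genes without a call. Leaving out 1 library gave log2 fold changes of −0.30 (without Dex library 1) to 1.17 for FT, −0.060 (without solvent library 1) to 0.29 for CYCB1;1 and −0.32 (without solvent library 2) to 0.52 for MYB28. With dal-2 also left out the ranges were −0.29 to 1.18, −0.057 to 0.30 and −0.31 to 0.52 for FT, CYCB1;1 and MYB28. The cause of these changes was not tested.

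With the replicate number as a block, 5470 genes were called within DIF-OX2 (2839 higher, 2631 lower), 1525 differed from Col-0 and 0 were called in Col-0. Deviations of same-numbered libraries of DIF-OX2 on Dex and DIF-OX2 without Dex correlated at 0.073, and the other pairs of groups at −0.105 to 0.458. DIF-OX2 without Dex correlated at 0.298 with Col-0 on Dex and at 0.458 with Col-0 without Dex. The value was 0.281 between the Col-0 groups and 0.124 between dal-2 and Col-0 without Dex. It was above 0.1 in no pair with DIF-OX2 on Dex. Same-numbered libraries of DIF-OX2 without Dex and of both Col-0 groups therefore shared part of their deviation, while a pairing with DIF-OX2 on Dex was not shown. A shared batch may bear on Dex against solvent, and it was not tested. The block ended the calls of FRO6, RBCS2B, PORA, CGA1, MORF9 and NAP, 6 of the named genes. With 2 libraries per group, small changes of genes at low counts were not detectable at this depth.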
